A study of Mus musculus with 4 samples.

Results

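The genes described here encode the nuclear-made subunits of oxidative phosphorylation, the machinery that makes ATP in the inner mitochondrial membrane. Members were chosen by name, as rows that begin with Nduf, Uqcr, Atp5, Cox4i, Cox5, Cox6, Cox7 or Cox8, plus Sdha, Sdhb, Sdhc, Sdhd, Cyc1 and Cycs. This gave 91 of the 23242 genes in the table. RNA was sequenced from the ventral and dorsal lobes of the prostate in 4 mice of the FVB strain. Mice 26 and 29 were homozygotes of a TMPRSS2:ERG transgene, and mice 27 and 28 were wild type. The transgene is a bacterial artificial chromosome with the TMPRSS2 locus, into which a floxed GFP cassette followed by human ERG exons was placed. Cre protein injected into pronuclei of 1 GFP-expressing line then gave a sub-line that was bred to homozygosity, so both homozygotes carry the same insertion and the same Cre history. The labels give each library its own mouse, and their ages are not given in the present sources. ERG is a transcription factor of the ETS family, and TMPRSS2 is an androgen-regulated gene of prostate epithelium.

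Complexes I and II pass electrons from NADH and succinate to ubiquinone, complex III passes them to cytochrome c, and complex IV passes them to oxygen. Complexes I, III and IV pump protons, and ATP synthase lets the protons flow back to make ATP. Prostate epithelium is known for secreting citrate, which is kept out of the citric acid cycle in those cells. A search by name found 0 rows for genes of the mitochondrial genome in the table, and the subunits encoded there were not analysed here.

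Values are FPKM (fragments per kilobase of transcript per 1e6 fragments), scaled between libraries by median-of-ratios factors of 1.01 and 1.04 for homozygotes 26 and 29, and 0.921 and 1.03 for wild types 27 and 28. Tests used limma on log2(scaled FPKM + 1) for genes whose mean reached 1 scaled FPKM, and log2 differences below are homozygote minus wild type on that scale. The libraries had 11541 to 11854 genes at 1 FPKM or more. All 8 prostate epithelium markers examined were tested, with means between 5.86 and 11790 scaled FPKM, so markers of the labelled tissue were present. One marker of that list, Epcam, an epithelial adhesion molecule, was at 441.9 and 437.3 scaled FPKM in homozygotes 26 and 29, against 263.2 and 245.0 in wild types 27 and 28 (log2 difference 0.79, SE 0.144, limma adjusted p = 0.0328). That call was lost without homozygote 26 (adjusted p = 0.311), without homozygote 29 (0.248), without wild type 28 (0.0572) and without a filter on low values (0.109). Each of 6 smooth muscle markers had both homozygotes below both wild types, against 25.8% of all genes tested. The median log2 difference of the 6 was -0.60. None passed the limma threshold, and 4 had an unadjusted p under 0.05, against 21.0% of all genes. The 6 markers summed to 1319 and 1553 scaled FPKM in the homozygotes, against 2700 and 1846 in the wild types. The 6 tested markers of pericytes and vessels and the 5 of adipocytes were also all below 0, with medians of -0.26 and -0.35. Both homozygotes lay below both wild types in 5 of those 6 and in 1 of those 5. None was called by limma, and 1 and 0 had an unadjusted p under 0.05. The adipocyte markers summed to 165.6 and 138.4 scaled FPKM in the homozygotes, against 231.0 and 163.8 in the wild types, and their median was 0.14 without wild type 27. Without wild type 28 that median was -0.66 and 3 of the 5 were called lower. Brown fat markers summed to 0.595 and 0.550 in the homozygotes, against 0.563 and 1.84 in the wild types, and none was tested. Of 5 tested seminal vesicle genes, 4 fell in homozygotes, against 3.0% of all genes tested. The median log2 difference was -7.22 over the list and 4.30 between wild types 27 and 28. All 8 genes of that list summed to 10840 and 20150 scaled FPKM in homozygotes 26 and 29. In wild types 27 and 28 the sums were 35610 and 33450. The part of these markers in the results below was not tested. In tissue RNA, fewer cells of a type and less RNA per cell cannot be told apart.

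Transcripts of the respiratory chain and ATP synthase were abundant in all 4 mice, and no member passed the test between genotypes. Of the 91 members, 86 passed the filter on low values. Among the 86, limma called 0 higher and 0 lower in homozygotes at an adjusted p of 0.05, and 0 at an unadjusted p under 0.05. Across the 11762 genes tested, 7.65% were called, 4.65% higher and 3.0% lower, and 21.0% had an unadjusted p under 0.05. The authors' deposited table gives 88 members a q-value, of which the lowest is 0.189, that of Ndufa1, while 14.2% of its genes have one under 0.05. The members with a p-value under 0.05 in the authors' deposited table number 2, Ndufa1 and Cox4i1.

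The median member was at 111.9 and 102.4 scaled FPKM in homozygotes 26 and 29, and at 115.9 and 97.1 in wild types 27 and 28. The wild types thus lay on both sides of the homozygotes. The median log2 difference over the 86 members was 0.054, against -0.0033 over all genes tested, and 56 members had a value above 0 and 30 below. That split turns with the scaling, since 74 members were above 0 without scaling and 29 with quantile normalization. Over all genes tested, 49.4% were above 0 in the main fit, 61.6% without scaling and 47.6% with quantile normalization. The 95% interval of the difference stayed within a 1.5-fold change in either direction for 62 of the 86 members and within a 2-fold change for 84. A p that misses the threshold does not show that the genotypes were alike.

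**Figure D1:**
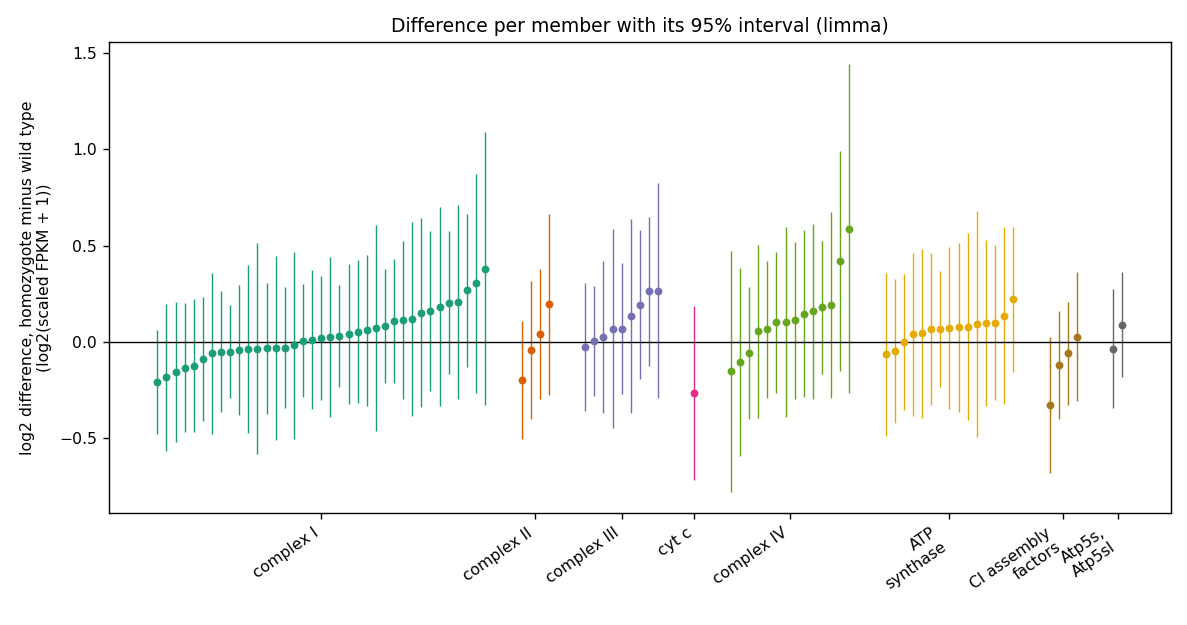
Log2 difference, homozygote minus wild type, for each of the 86 tested members, grouped by complex and ordered by size within it, with the 95% interval from limma. Every interval crosses 0, and the widest are those of Cox8b (complex IV) and Ndufs5 (complex I).

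Both homozygotes lay above both wild types for 5 members, and both lay below for 4. Over all genes tested, the groups did not overlap in 51.1%, 25.3% with homozygotes higher and 25.8% with homozygotes lower. The 5 were Atp5g2, Uqcr10, Cox4i1, Cox6b2 and Atp5sl, and the 4 were Ndufs1, Ndufv1, Ndufaf1 and Sdha. Uqcr10 and Ndufs1 are named for these counts, after their values were seen. The 9 members are 10.5% of the 86, and the difference between that share and the share of all genes was not tested. The count of 5 became 36 without scaling (34.0% of all genes), and the count of 4 became 21 with quantile normalization (26.8% of all genes), so neither holds across scalings.

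Single mice of the same genotype were farther apart in these genes than the means of the genotypes. Homozygote 26 was above homozygote 29 in 77 of the 86 members, against 50.7% of all genes tested. Wild type 27 was above wild type 28 in 82 of the 86, against 48.2% of all genes. The members thus moved together from mouse to mouse within each genotype. The median absolute log2 difference over members was 0.0847 between genotypes, 0.173 from homozygote 26 to 29 and 0.304 from wild type 27 to 28. Over all genes tested these medians were 0.151, 0.106 and 0.183, with the difference between genotypes above that between the homozygotes. A difference between means of 2 mice varies less by chance than one between 2 single mice, so the order within the members is a description. The counts of 77 and 82 were 75 and 73 without scaling and 71 and 73 with quantile normalization. The matching shares of all genes were 40.4% and 28.9% without scaling, and 52.3% and 51.8% with quantile normalization. The 4 members with wild type 28 above wild type 27 were Sdha, Ndufs1, Atp5a1 and Cox8b, and Atp5a1 is named for that count.

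**Figure D2:**
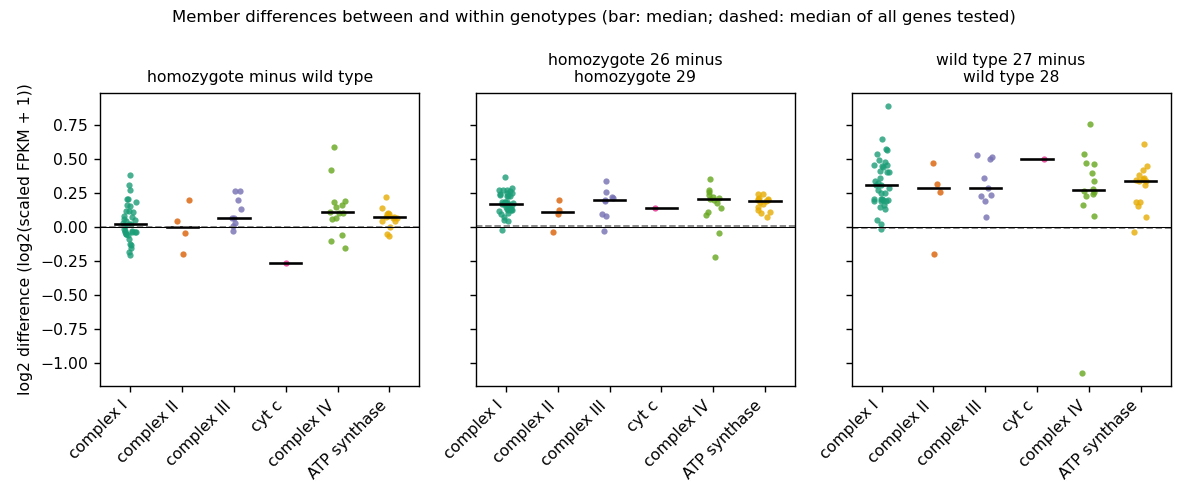
Log2 differences of single members by complex, homozygote minus wild type at left, homozygote 26 minus homozygote 29 in the middle and wild type 27 minus wild type 28 at right; bars are medians and the dashed line is the median of all genes tested. The 2 comparisons of mice of 1 genotype lie almost wholly above 0. Medians over all tested members are 0.17 between homozygotes, 0.30 between wild types and 0.054 between genotypes. The complex I assembly factors, and Atp5s with Atp5sl, count in these medians but are not drawn. Their medians were -0.0073 and -0.040 between homozygotes, and 0.21 and 0.17 between wild types.

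Transcript length went along with these differences. Members are short, with a median annotated transcript of 786 bases against 2770 bases for the 11519 tested genes that have a length. Over all genes, wild type 27 minus wild type 28 had a median log2 difference of 0.33 for the 94 genes of up to 500 bases and -0.12 for the 5172 genes over 3000 bases. Homozygote 26 minus homozygote 29 had medians of 0.14 and -0.049 for the same genes, and homozygote minus wild type 0.11 and -0.022. The trend with length was thus present within each genotype, and weaker between genotypes. In both comparisons within a genotype, the members' median lay above that of all genes in each of the 6 ranges of length examined. For the 29 members of over 500 to 750 bases, wild type 27 minus wild type 28 was 0.36, against 0.31 for all genes of that length. For the 14 members of over 1500 to 3000 bases it was 0.16, against 0.017 for all genes. Homozygote minus wild type was 0.073 for those 29 members, against 0.085 for all genes of the same length, and -0.034 for those 14 members, against 0.0059. Up to 500 bases the members' median was above that of all genes, at 0.16 against 0.11. The same held for over 750 to 1000 bases, at 0.069 against 0.034. In the other ranges it lay below. The cause of the trend was not tested.

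**Figure D3:**
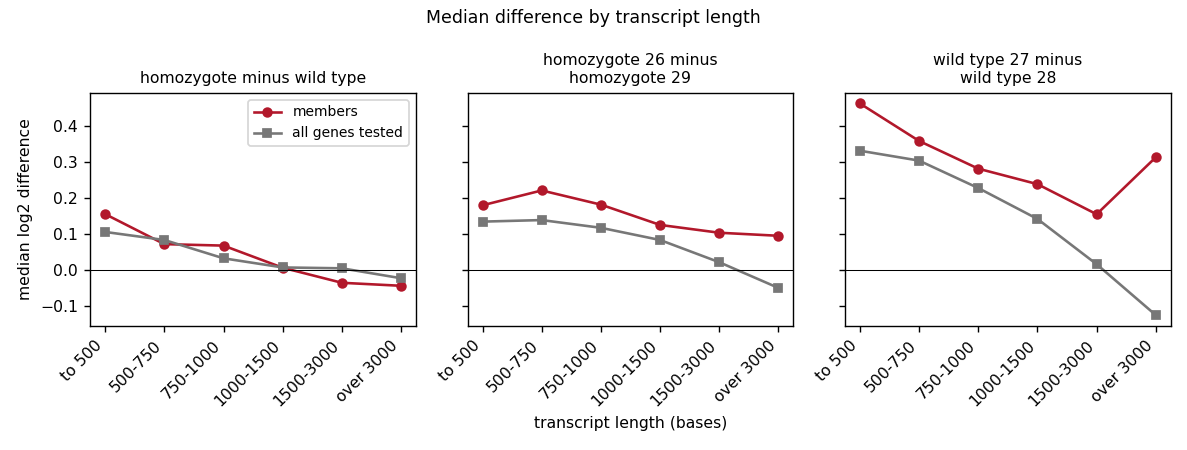
Median log2 difference in 6 ranges of transcript length for the members (circles) and for all genes tested (squares), homozygote minus wild type at left and the 2 within-genotype comparisons beside it. For all genes the median of the longest range is below that of the shortest in all 3 panels; the members' ranges hold 12, 29, 12, 16, 14 and 3 genes from short to long.

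Genes for ribosomal proteins of the cytosol, equally short with a median transcript of 780 bases, gave a point of comparison. Homozygote 26 was above homozygote 29 in 74 of the 75 tested and wild type 27 above wild type 28 in all 75, much as for the members. Their median log2 difference between genotypes was 0.37, against 0.054 for the respiratory members. All 75 were above 0. In 56 of the 75 both homozygotes lay above both wild types, against 25.3% of all genes tested and 5 of the 86 members. That count of 56 was not made under other scalings. The median of 0.37 was 0.17 with quantile normalization and 0.20 without wild type 28. None of the 75 passed the limma threshold, and 6 had an unadjusted p under 0.05, against 7.65% and 21.0% of all genes tested. With quantile normalization 4 were called higher, without wild type 27 3 were, and 6 have a q-value under 0.05 in the authors' deposited table, so the count of 0 depends on the processing.

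The start regions of the genes were read for motifs of factors known to act on respiratory genes. RefSeq promoters (GRCm38.p6, 250 bases before to 50 bases after the start) were found for 75 of the 91 members. The letters searched on both strands were CCGGAAG, the core bound by ETS factors such as ERG and GABP, and the NRF1 core, GCGCA and GCGC separated by 1 base. TCAAGGTCA, bound by estrogen-related receptors, and AAGATGGCG, bound by YY1, were searched too; the last 3 letters of the ETS core can be the first 3 of the YY1 motif. The ETS core was present in 17 of the 75 members (22.7%), against 20.1% of tested genes and 9.93% of all genes with a promoter. The NRF1 core was present in 18 members (24.0%), against 11.6% and 5.19%. The YY1 motif was present in 8 (10.7%), against 3.66% and 1.64%, and that for estrogen-related receptors in 2 (2.67%), against 0.298% and 0.466%. The promoters of Sdhd, Cox6a1 and Uqcrh, subunits of complexes II, IV and III, are printed as examples of windows with the ETS core. They were picked from the 17 members without a rule set beforehand. Some other members have the core nearer the start site than Sdhd, such as Cox8a at -5 and Ndufaf1 at -18. The windows of Sdhd and Cox6a1 also hold NRF1 cores. Motifs are in capitals on either strand, so that CTTCCGG is the ETS core read on the other strand.
Sdhd, chr9:50603800-50604099, minus strand: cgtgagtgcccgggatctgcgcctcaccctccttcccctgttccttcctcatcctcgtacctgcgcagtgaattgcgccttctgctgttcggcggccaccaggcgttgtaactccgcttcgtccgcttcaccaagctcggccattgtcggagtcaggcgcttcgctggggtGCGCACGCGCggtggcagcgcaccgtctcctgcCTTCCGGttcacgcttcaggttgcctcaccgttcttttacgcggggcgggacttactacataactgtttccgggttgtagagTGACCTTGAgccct
Cox6a1, chr5:115348909-115349208, minus strand: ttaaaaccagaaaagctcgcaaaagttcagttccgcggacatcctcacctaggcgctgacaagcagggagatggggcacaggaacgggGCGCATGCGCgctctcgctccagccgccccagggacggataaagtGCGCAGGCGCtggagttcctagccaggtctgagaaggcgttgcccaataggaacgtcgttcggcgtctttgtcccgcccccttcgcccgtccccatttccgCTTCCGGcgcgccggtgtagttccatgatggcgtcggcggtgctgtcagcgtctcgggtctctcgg
Uqcrh, chr4:116075021-116075320, minus strand: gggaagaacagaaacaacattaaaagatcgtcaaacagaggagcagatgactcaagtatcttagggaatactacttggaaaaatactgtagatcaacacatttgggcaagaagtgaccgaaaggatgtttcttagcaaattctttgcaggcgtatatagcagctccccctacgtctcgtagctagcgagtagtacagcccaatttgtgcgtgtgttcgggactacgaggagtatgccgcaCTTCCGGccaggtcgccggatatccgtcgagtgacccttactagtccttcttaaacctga
Counted from the start site as +1, the ETS core begins at -46 in Sdhd, -16 in Cox6a1 and -10 in Uqcrh, and Sdhd also holds the motif for estrogen-related receptors at +37. The NRF1 core begins at -79 in Sdhd and at -117 and -162 in Cox6a1. These are descriptions of letters in a window and say nothing of which factor was bound.

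Complex I, the NADH dehydrogenase, had 37 of its 38 rows tested, 21 above 0 and 16 below, with a median log2 difference of 0.019. Its summed level was 3781 and 3286 scaled FPKM in homozygotes 26 and 29, against 3819 and 2988 in wild types 27 and 28, and the groups overlapped. The most abundant was Ndufa1, an accessory subunit of the membrane arm (Entrez 54405, chromosome X, 37187589 to 37191238, mm10). Ndufa1 was at 375.1 and 319.8 scaled FPKM in homozygotes, against 341.6 and 230.3 in wild types (log2 difference 0.30, SE 0.229, limma adjusted p = 0.540). Wild type 27 lay between the homozygotes. Ndufa4 is named for complex I but now placed with complex IV. By their names, Ndufa4 and Ndufa4l2 are counted here in the rows and sums of complex I, not of complex IV. Ndufa4 was at 289.3 and 254.6 scaled FPKM in homozygotes, against 310.7 and 214.1 in wild types, so that the wild types enclosed the homozygotes.

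The member of complex I with the highest difference was Ndufs5, an accessory subunit on the intermembrane side (Entrez 595136, chromosome 4, 123712710 to 123718186). Ndufs5 was at 31.7 and 28.1 scaled FPKM in homozygotes, against 31.2 and 16.5 in wild types (log2 difference 0.38, SE 0.286, limma adjusted p = 0.537). Wild type 28 stood apart from the other 3 libraries, which lay close together. Without wild type 27 the difference was 0.82 with an adjusted p of 0.00308, and without wild type 28 it was -0.061. The row overlaps another gene's row in the table, so reads may be shared, and its log2 fold in the authors' deposited table is 0.237. At the other end was Ndufv1, which carries the NADH-binding site and FMN (Entrez 17995, chromosome 19, 4007505 to 4012725). Ndufv1 was at 52.3 and 48.6 scaled FPKM in homozygotes, against 59.5 and 57.5 in wild types (log2 difference -0.21, SE 0.108, limma adjusted p = 0.352). Both homozygotes lay below both wild types. Ndufs1, the large iron-sulfur subunit, was also below in both after scaling (without it, the log2 ratio of means was 0.022), at 27.1 and 27.5 scaled FPKM against 28.2 and 28.5, a log2 difference of -0.051.

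Core subunits of complex I that carry the FMN and the iron-sulfur clusters, or work beside them, are named for that role, after their values were seen. Ndufv2, of the module that oxidises NADH, was at 71.2 and 65.5 scaled FPKM in homozygotes, against 88.2 and 68.6 in wild types, a log2 difference of -0.19. Homozygote 26 lay between the wild types. Ndufs3, Ndufs7 and Ndufs8 belong to the module that reduces ubiquinone. Ndufs8 was at 50.7 and 41.9 scaled FPKM in homozygotes, against 42.7 and 34.1 in wild types, a log2 difference of 0.27 (SE 0.159, limma adjusted p = 0.427). Ndufs7 was at 88.6 and 78.0 in homozygotes, against 81.6 and 72.8 in wild types. In Ndufs7 and Ndufs8 wild type 27 lay between the homozygotes. Ndufs3 was at 74.4 and 67.8 in homozygotes, against 78.8 and 69.0 in wild types, and also overlapped. None of these subunits passed the test.

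The 4 complex I assembly factors that share the Nduf prefix were expressed at far lower levels, with means between 3.64 and 15.4 scaled FPKM against 22.6 to 316.7 for the tested subunits. Ndufaf1, which works in the assembly of the membrane arm (Entrez 69702, chromosome 2, 119655451 to 119662798), had the lowest adjusted p of all members. Ndufaf1 was at 4.13 and 4.32 scaled FPKM in homozygotes, against 6.33 and 4.88 in wild types (log2 difference -0.33, SE 0.142, limma adjusted p = 0.268). Both homozygotes were below both wild types, and wild type 28 was the nearer. Without wild type 28 the difference was -0.49 with an adjusted p of 0.0430. Ndufaf2 was at 11.7 and 11.4 scaled FPKM in homozygotes, against 12.8 and 11.4 in wild types, and Ndufaf3 at 15.3 and 14.2, against 17.1 and 15.2. Ndufaf4 was at 3.53 and 3.81 in homozygotes, against 4.02 and 3.19 in wild types. For Ndufaf2, Ndufaf3 and Ndufaf4 the groups overlapped.

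Complex II, succinate dehydrogenase, is also an enzyme of the citric acid cycle and is made of nuclear-encoded subunits only. Its 4 subunits split, 2 above 0 and 2 below, with a median log2 difference of -0.00068. The catalytic flavoprotein Sdha (Entrez 66945, chromosome 13, 74322255 to 74350240) was at 81.6 and 83.8 scaled FPKM in homozygotes, against 88.7 and 101.9 in wild types (log2 difference -0.20, SE 0.124, limma adjusted p = 0.450). Both homozygotes were below both wild types, and Sdha went against most members in being higher in wild type 28 than in wild type 27. The membrane anchor Sdhd was at 122.8 and 106.8 scaled FPKM in homozygotes, against 117.9 and 84.8 in wild types (log2 difference 0.19, SE 0.189, limma adjusted p = 0.649). The groups overlapped. The iron-sulfur subunit Sdhb was at 86.6 and 79.6 scaled FPKM in homozygotes, against 88.1 and 73.8 in wild types. The other membrane anchor, Sdhc, was at 76.3 and 71.3 in homozygotes, against 84.9 and 68.1 in wild types. In both Sdhb and Sdhc the wild types enclosed the homozygotes.

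Complex III, the cytochrome bc1 complex, had 9 members, 8 above 0 and 1 below, with a median log2 difference of 0.068. Without wild type 27 that median was 0.33, and without wild type 28 it was -0.032. Its hinge protein Uqcrh (Entrez 66576, chromosome 4, 116066965 to 116075070) was the most abundant and had the highest difference. Uqcrh was at 365.0 and 288.7 scaled FPKM in homozygotes, against 320.6 and 227.1 in wild types (log2 difference 0.27, SE 0.225, limma adjusted p = 0.591). Wild type 27 lay between the homozygotes. The small subunit Uqcr10 was at 170.6 and 143.0 scaled FPKM in homozygotes, against 140.8 and 120.3 in wild types, a log2 difference of 0.26. Its groups did not overlap, but the gap between the nearest mice was small. Uqcr11 was at 199.9 and 174.6 scaled FPKM in homozygotes, against 214.1 and 148.4 in wild types. The core subunit Uqcrc2, which holds the lowest difference of the complex, was at 106.5 and 99.8 in homozygotes, against 114.0 and 96.9 in wild types. Its log2 difference was -0.027.

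The nuclear subunits of complex III that carry electrons, Uqcrfs1 and Cyc1, and the core protein Uqcrc1 are named for their role, after their values were seen. The Rieske iron-sulfur protein Uqcrfs1 was at 133.6 and 114.4 scaled FPKM in homozygotes, against 119.2 and 97.9 in wild types, a log2 difference of 0.19. Cytochrome c1, from Cyc1, was at 97.8 and 84.3 in homozygotes, against 92.4 and 81.1 in wild types, a log2 difference of 0.068. The groups overlapped in both genes. Uqcrc1, the other core protein beside Uqcrc2, was at 98.7 and 93.3 in homozygotes, against 98.2 and 93.4 in wild types, with a log2 difference of 0.0029.

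Cytochrome c, the mobile carrier between complexes III and IV, is encoded by Cycs (Entrez 13063, chromosome 6, 50562563 to 50566474). Cycs was at 17.6 and 15.8 scaled FPKM in homozygotes, against 24.2 and 16.9 in wild types (log2 difference -0.27, SE 0.182, limma adjusted p = 0.495). Wild type 27 stood above the other 3 libraries, and wild type 28 lay between the homozygotes. Without wild type 28 the difference was -0.51 with an adjusted p of 0.0294, and without wild type 27 it was -0.018. Cycs and other respiratory genes have processed pseudogenes, and how reads shared with them were placed is not given in the present sources.

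Complex IV, cytochrome c oxidase, had 18 rows, of which 14 were tested, 11 above 0 and 3 below, with a median log2 difference of 0.11. That median was 0.18 without scaling and -0.0092 with quantile normalization. Its summed level was 3297 and 2809 scaled FPKM in homozygotes, against 3016 and 2431 in wild types, and the groups overlapped. Cox4i1, the common form of a regulatory subunit (Entrez 12857, chromosome 8, 120668290 to 120674209), was the most abundant member of all. Cox4i1 was at 1036 and 812.3 scaled FPKM in homozygotes, against 771.0 and 610.0 in wild types (log2 difference 0.42, SE 0.230, 95% interval -0.15 to 0.99, limma adjusted p = 0.385). Both homozygotes were above both wild types, with homozygote 29 close to wild type 27. In the authors' deposited table Cox4i1 has a log2 fold of 0.51 with a p-value of 0.0313 and a q-value of 0.212.

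Several subunits of complex IV exist in a common form and in forms known from other tissues, and prostate libraries held the common form in each case. Cox6a1 was at 367.9 and 315.3 scaled FPKM in homozygotes, against 337.6 and 280.6 in wild types. Its counterpart of heart and skeletal muscle, Cox6a2, was listed at 0 in homozygotes 26 and 29 and in wild type 27, and at 0.290 in wild type 28. Cox7a2 was at 143.0 and 119.5 scaled FPKM in homozygotes, against 134.3 and 97.3 in wild types, and the muscle form Cox7a1 at 3.10 and 2.86, against 4.75 and 2.41. Cox7a1 had the lowest difference of complex IV, -0.15 (SE 0.251, limma adjusted p = 0.807), and wild type 27 stood above the other 3 libraries. Without wild type 28 that difference was -0.53 with an adjusted p of 0.0376, and without wild type 27 it was 0.22.

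Cox8a was at 418.0 and 347.2 scaled FPKM in homozygotes, against 399.1 and 337.2 in wild types. The muscle form Cox8b (Entrez 12869, chromosome 7, 140898942 to 140900446) was at 1.58 and 1.29 in homozygotes, against 0.117 and 1.34 in wild types. Cox8b had the highest difference of any member, 0.59 (SE 0.344, 95% interval -0.27 to 1.45, limma adjusted p = 0.419). Its value rests on the low level in wild type 27, because wild type 28 lay between the homozygotes. Markers of skeletal muscle, where Cox6a2, Cox7a1 and Cox8b are known to act, were tested in 4 of 11 cases, and all 4 had a log2 difference below 0 with a median of -0.39. Their summed level over all 11 markers was 106.5 and 126.8 scaled FPKM in homozygotes, against 201.3 and 129.5 in wild types.

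Cox6b1 was at 280.3 and 244.2 scaled FPKM in homozygotes, against 264.9 and 221.3 in wild types. The form of testis, Cox6b2, was at 2.52 and 2.63 in homozygotes, against 2.48 and 1.87 in wild types, a log2 difference of 0.18. Its groups did not overlap, but homozygote 26 and wild type 27 were nearly equal. Other testis forms were at or near 0. Cox7b2 was listed at 0 in every library, and Cox8c was at 0.0420 and 0.0392 in homozygotes, against 0.1001 and 0.1266 in wild types. None of 9 male germ cell genes reached 1 scaled FPKM in any library. Cox4i2 and Ndufa4l2 are forms linked to low oxygen. Cox4i2 was at 0.624 and 0.633 scaled FPKM in homozygotes, against 0.800 and 0.556 in wild types, and Ndufa4l2 was listed at 0 in every library. The authors' deposited table nonetheless holds a finite log2 fold for Ndufa4l2, -0.13, so its level is not known. A listed 0 may be a failed estimate, since Sco2, an assembly factor of complex IV, was listed at 0 in all 4 libraries too. Cox7a2l, a factor that joins complexes III and IV into supercomplexes, was at 144.3 and 168.3 scaled FPKM in homozygotes, against 166.8 and 158.0 in wild types. Cox7a2l was one of the members with homozygote 29 above homozygote 26.

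**Figure D4:**
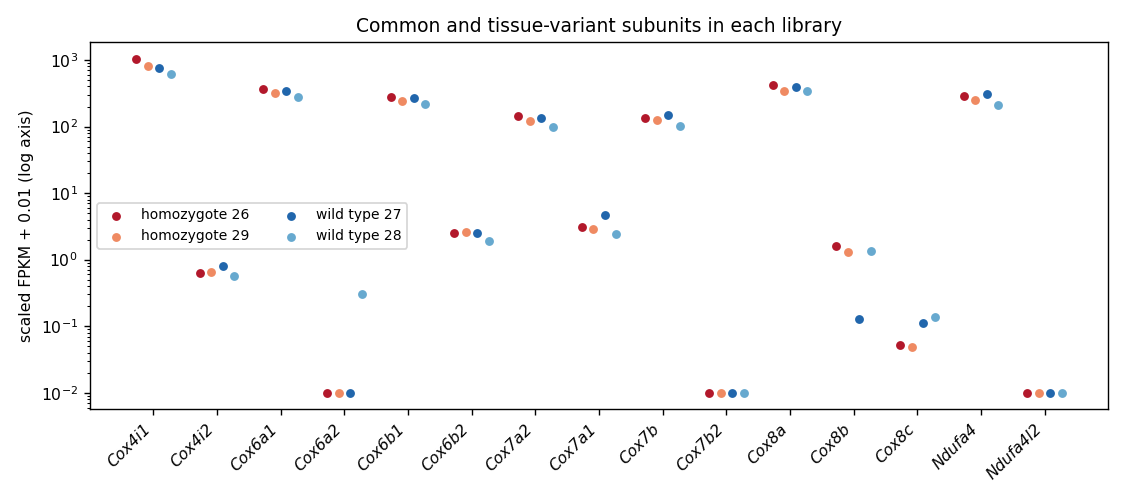
Scaled FPKM plus 0.01 (log axis) of common and tissue-variant subunits in the 4 libraries, homozygotes at left within each gene. The common forms lie near or above 100, Cox6b2 and Cox7a1 between 1 and 5, and Cox6a2, Cox7b2, Cox8c and Ndufa4l2 at 0 or under 0.3, with Cox8b low in wild type 27 alone.

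ATP synthase had 15 members, all tested, 12 above 0 and 3 below, with a median log2 difference of 0.072. The median was 0.15 without scaling and -0.066 with quantile normalization. Its summed level was 3719 and 3314 scaled FPKM in homozygotes, against 3682 and 3033 in wild types, and the groups overlapped. The catalytic beta subunit Atp5b was at 599.4 and 557.0 scaled FPKM in homozygotes, against 574.9 and 507.4 in wild types (log2 difference 0.097, SE 0.173, limma adjusted p = 0.826). Atp5b overlaps another row of the table, and its groups overlapped in level. Atp5f1, a subunit of the peripheral stalk, had the lowest difference, -0.066, at 151.4 and 130.3 in homozygotes against 166.5 and 130.0 in wild types.

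Atp5a1, which builds the catalytic head with Atp5b, was at 325.7 and 309.3 scaled FPKM in homozygotes, against 313.9 and 321.8 in wild types. Its log2 difference was -0.0019 (SE 0.142), with a 95% interval from -0.35 to 0.35. Atp5c1, the gamma subunit of the central stalk, was at 191.6 and 167.0 in homozygotes, against 196.3 and 154.3 in wild types. Atp5d, the delta subunit, was at 140.5 and 130.8 in homozygotes, against 132.8 and 126.3 in wild types, and Atp5e, the epsilon subunit, at 336.0 and 292.2, against 363.0 and 237.3. The groups overlapped in each of these genes, and the spread between the wild types was narrow for Atp5a1 and wide for Atp5e. Atp5c1, Atp5d and Atp5e are named for their role, after their values were seen.

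Subunit c, which forms the ring that turns in the membrane, is made from several genes with the same mature protein. Atp5g1 was at 117.4 and 107.5 scaled FPKM in homozygotes, against 129.3 and 104.5 in wild types. Atp5g2 was at 230.3 and 194.3 in homozygotes, against 191.6 and 172.0 in wild types, and Atp5g3 at 378.2 and 332.1, against 352.6 and 310.7. Atp5g2 had the highest difference of the complex, 0.22 (SE 0.152, limma adjusted p = 0.500), and was the only one of these genes without overlap, with homozygote 29 just above wild type 27. Atp5g1 and Atp5g3 overlapped. The order of levels, Atp5g3 over Atp5g2 over Atp5g1, was the same in each of the 4 libraries. Atp5s and Atp5sl, which share the Atp5 prefix but are not core subunits, were at 5.12 and 5.36 and at 5.78 and 5.90 scaled FPKM in homozygotes. In wild types Atp5s was at 5.93 and 4.92, and Atp5sl at 5.69 and 5.18. Atp5sl did not overlap, by a small gap, and Atp5s did.

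**Figure D5:**
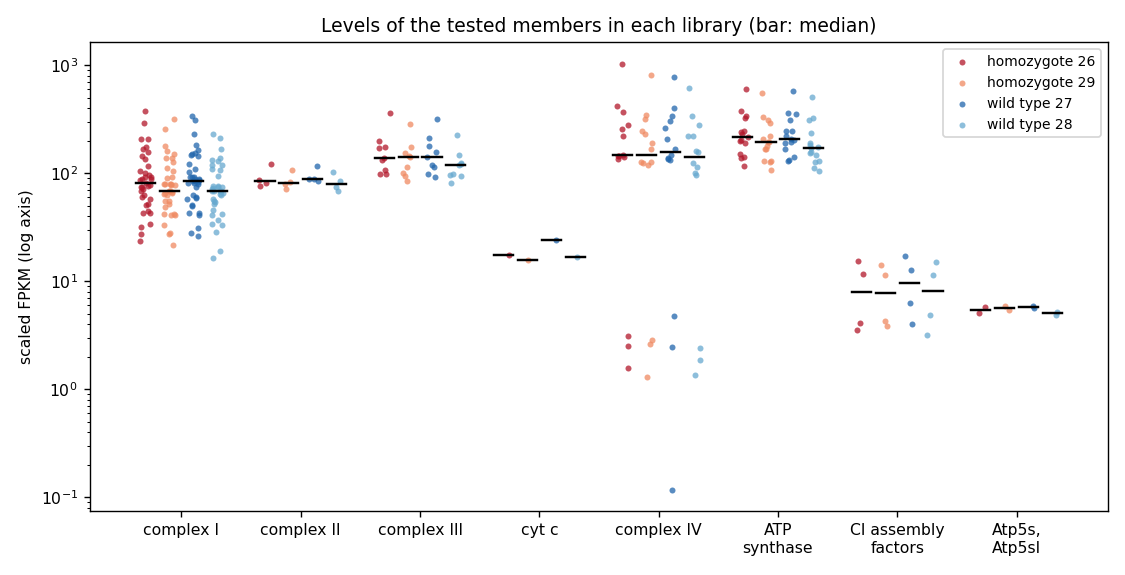
Scaled FPKM (log axis) of the tested members in each library by complex, homozygotes at left and wild types at right within each group, with the median as a bar. ATP synthase has the highest medians, between 172.0 and 218.8, and the points of homozygotes and wild types overlap in every complex.

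Lists of genes that work beside the respiratory chain were read in the same fit. Over all genes tested, 7.65% were called and 21.0% had an unadjusted p under 0.05. Among 76 tested genes for mitochondrial ribosomal proteins, limma called 0 and 1 had an unadjusted p under 0.05. Their median log2 difference was 0.0175, and wild type 27 was above wild type 28 in 72 of them. The 2 farthest from 0 were Mrps6, at 61.1 and 54.6 scaled FPKM in homozygotes against 94.0 and 75.4 in wild types (-0.54, SE 0.149, limma adjusted p = 0.105), and Mrpl34, with a log2 difference of 0.33. The row of Mrps6 overlaps another gene's row, so reads may be shared. Of 13 citric acid cycle genes, 0 were called and 1 had an unadjusted p under 0.05, with a median of -0.026. Fumarate hydratase, Fh1, was at 45.6 and 42.3 scaled FPKM in homozygotes, against 61.4 and 52.3 in wild types, a log2 difference of -0.36 (limma adjusted p = 0.179). Idh3b, whose row also overlaps another, was the next farthest at 0.18. Of 24 tested assembly factors outside the naming rule, 0 were called and 1 had an unadjusted p under 0.05, with Sdhaf1 (0.31) and Cox10 (0.25) farthest from 0. Of 7 tested carriers and channels, 0 were called and 1 had an unadjusted p under 0.05. Slc25a5, an ADP/ATP carrier, was at 496.9 and 398.1 scaled FPKM in homozygotes, against 341.0 and 286.0 in wild types, without overlap (log2 difference 0.51, SE 0.189, limma adjusted p = 0.203). Slc25a3, the phosphate carrier, followed with 0.20.

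Among these lists, the genes that passed the test were regulators of mitochondrial genes and 1 enzyme of glycolysis. Of 16 tested regulators of mitochondrial biogenesis, 2 rose in homozygotes and 0 fell, against 4.65% and 3.0% of all genes tested. The median over the list was -0.0415. Gabpb1, which pairs with an ETS protein to form GABP, a known activator of respiratory genes, was at 11.5 and 11.6 scaled FPKM in homozygotes, against 7.35 and 6.52 in wild types (log2 difference 0.67, SE 0.109, limma adjusted p = 0.0239). Esrrg, an estrogen-related receptor, was at 7.69 and 7.23 in homozygotes, against 4.26 and 4.96 in wild types (log2 difference 0.60, SE 0.118, limma adjusted p = 0.0420). In both genes the homozygotes agreed closely and lay above both wild types. Both calls were lost without homozygote 26 (adjusted p of 0.1995 for Gabpb1 and 0.348 for Esrrg), without homozygote 29 (0.179 and 0.216) and without a filter on low values (0.115 and 0.176), and that of Esrrg also without scaling (0.0807).

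Of 17 tested glycolytic genes, 1 rose and 0 fell, and 6 had an unadjusted p under 0.05. Over all genes tested these shares were 4.65%, 3.0% and 21.0%. Aldoc, an aldolase best known from brain, was at 64.9 and 60.3 scaled FPKM in homozygotes, against 8.14 and 7.47 in wild types (log2 difference 2.85, SE 0.107, limma adjusted p = 0.000184). The groups were far apart, and the call held in each of the alternatives run, with log2 differences between 2.80 and 3.07. Hk1, a hexokinase that can sit on the mitochondrial outer membrane, was at 33.8 and 33.2 scaled FPKM in homozygotes, against 14.4 and 22.3 in wild types, without overlap but with a limma adjusted p of 0.0692. A q-value under 0.05 in the authors' deposited table was held by 3 glycolytic genes, against 14.2% of all genes with a q-value there. The 3 were Aldoc, Hk1 (0.000185) and Eno2 (1.1e-05), the last with a log2 fold of -1.54. Of 12 tested genes for pyruvate entry, 0 were called and 3 had an unadjusted p under 0.05, against 21.0% of all genes. Pdp1, a phosphatase that activates pyruvate dehydrogenase, was at 2.37 and 2.52 scaled FPKM in homozygotes, against 5.11 and 3.18 in wild types (limma adjusted p = 0.186), and has a q-value of 0.00962 in the authors' deposited table. Pdk4, a kinase that turns the same enzyme off, was at 1.55 and 1.62, against 2.03 and 3.32. Of 11 tested hypoxia response genes, 0 were called and 2 had an unadjusted p under 0.05, again against 21.0% of all genes. Pfkfb3 was at 36.5 and 105.3 in homozygotes, against 84.6 and 153.7 in wild types, with wide overlap (limma adjusted p = 0.435), although its q-value in the authors' deposited table is 1.6e-07. Higd1a was at 11.6 and 10.5, against 18.8 and 14.4, without overlap.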

How the data were processed

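RNA sequencing of 4 prostate libraries, 2 per genotype, was analysed from 1 deposited table. It gives 1 FPKM per gene and library, a unit inferred from the deposited values. TopHat 1.3, Cufflinks 1.3 and build mm10 are named, per the submitters' processing notes. The annotation, the use of strand and the handling of shared reads are not given in the present sources. Per the file headers, further deposited columns hold the authors' log2 fold, p-value and q-value; base 2 was inferred from the values.

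FPKM values do not give fragment counts, so depth is unknown here and no count test was run. The value 99999 was read as a code and treated as missing. FPKM were divided by median-of-ratios factors from genes with at least 1 FPKM in every library. The 11762 genes whose mean reached 1 scaled FPKM, none with missing values, entered limma 3.58.1 in R 4.3.3 on log2(scaled FPKM + 1), with a variance trend, two-sided, Benjamini-Hochberg adjustment over all of them and a threshold of 0.05. Changes of low genes are understated on this scale. Residual degrees of freedom were 2, with 3.62 more from the prior, and the fit was tested on simulated data. The simulation drew errors independently for each gene and planted log2 changes of 1 or 2 in size. Shifts shared by members from mouse to mouse, and smaller changes, were not simulated. With 2 mice per genotype, p-values rest on the spread between these mice only. Each gene's variance is in part that of other genes of like level.

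The members, their split by complex and the comparison lists were chosen with earlier results of these data known. Named members are, per complex, those called, the 2 with the highest mean and those with the highest and lowest difference, plus tissue-variant subunits and their counterparts; in comparison lists, those called and the 2 farthest from 0. Others are said to be named after their values were seen. Transcript length is that of the GENCODE vM21 basic transcript with the longest coding sequence. Promoters are RefSeq's. Of the 91 members, 13 overlap another row of the table.

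The alternatives left out each library in turn, left out overlapping rows, used no scaling or quantile normalization, set the pseudocount to 0.1, dropped the filter or raised it to 5, fitted without a trend or with a robust one, or took the authors' deposited fold and q-value. Counts of members by direction or overlap under other scalings were chosen after the data were seen.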

Additional observations from a re-analysis of the deposited data

How the results depend on the processing

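The number of members called by limma stayed at 0 in each direction under every scaling, filter, pseudocount and trend run, with overlapping rows left out and in the authors' deposited table. It ranged from 0 to 1 higher and from 0 to 3 lower when 1 library was left out, with Ndufs5 called higher without wild type 27, and Ndufaf1, Cycs and Cox7a1 called lower without wild type 28. A lone library of a group is then assumed to vary like the other group. Over all genes, 547 higher and 353 lower became 90 and 36 without a filter and 1012 and 1020 in the authors' deposited table. The 353 became 185 without scaling and 231 with a minimum mean of 5. With 1 library left out, the calls ranged from 216 to 995 higher and from 139 to 1033 lower. The members' median of 0.054 was 0.13 without scaling and -0.051 with quantile normalization, and ranged from -0.099 without wild type 28 to 0.19 without wild type 27. The median of complex III ranged from -0.032 to 0.33.

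Counts of members by direction followed the scaling. With quantile normalization 29 members were above 0 (47.6% of all genes), and 21 had both homozygotes below both wild types (26.8%). Without scaling 36 had both above (34.0% of all genes). Without scaling 74 of the 86 were above 0 (61.6% of all genes), against 56 with it (49.4%). Among members named by the rule, the log2 difference without scaling turned above 0 for Atp5f1 (0.011), Atp5g1 (0.028), Atp5s (0.030), Cox7a2l (0.019), Ndufaf2 (0.011), Sdhc (0.034) and Uqcrc2 (0.050). Outside the rule, Ndufs1, Atp5a1 and Ndufs3 had log2 ratios of unscaled means of 0.022, 0.073 and 0.026. In the authors' deposited table it was above 0 for Atp5f1 (0.014), Atp5g1 (0.013), Atp5s (0.0095), Cox7a2l (0.015), Sdhc (0.021) and Uqcrc2 (0.018). With quantile normalization it turned below 0 for Atp5b (-0.087), Atp5g3 (-0.067), Cox6a1 (-0.028), Cox6b1 (-0.038), Cox8a (-0.12), Ndufa4 (-0.058), Sdhb (-0.0245) and Uqcr11 (-0.041).

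Leaving out wild type 27 or wild type 28 moved the direction of several members across 0. From without wild type 28 to without wild type 27, the log2 difference ranged from -0.24 to 0.11 for Atp5f1, from -0.20 to 0.10 for Atp5g1, from -0.15 to 0.077 for Atp5s and from -0.017 to 0.24 for Cox6b1. It ranged from -0.53 to 0.22 for Cox7a1, from -0.037 to 0.42 for Cox7a2, from -0.19 to 0.34 for Ndufa4 and from -0.13 to 0.013 for Ndufaf2. For Ndufaf4 the range was -0.10 to 0.16, for Ndufs5 -0.061 to 0.82, for Sdhb -0.084 to 0.17, for Sdhc -0.20 to 0.11 and for Sdhd -0.040 to 0.43. For Uqcr11 it was -0.19 to 0.33 and for Uqcrc2 -0.14 to 0.088. Leaving out a homozygote also moved Atp5f1, Atp5g1, Ndufa4, Ndufaf4, Sdhb, Sdhc, Uqcr11 and Uqcrc2 across 0, within these ranges. Over all 4 libraries left out in turn, the range was -0.17 to 0.054 for Cox7a2l and -0.077 to 0.19 for Cox8a, with Cox8a at -0.066 without wild type 28. The cause of these shifts was not tested. No paired analysis was possible because the genotypes share no mouse number.

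With 2 mice per genotype, a difference under the mouse-to-mouse spread cannot be told from none. The depth is unknown, so the precision of low members such as Cox8b, Cox6b2 and Cox7a1 cannot be stated from counts.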
